A study of Mus musculus with 6 samples.

Results

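Snrpn, Ndn, Magel2, Peg12, Peg3, Usp29, Zim1, Plagl1, Grb10 and Impact are imprinted genes, transcribed mainly from the copy inherited from 1 parent. These 10 genes were taken by symbol from the deposited table of 57180 genes, and all 10 were among the 15714 genes with enough reads for a test. RNA came from C57BL/6 mouse embryonic stem (ES) cells, as 3 libraries of Mpp8/Tasor double knockout (dKO) cells and 3 libraries of wild-type (WT) cells. No treatment, sex or passage is given for either genotype, and the sources used here do not say whether the dKO cells were 1 clone or whether the libraries came from separate cultures, so p-values measure the spread between these libraries. All libraries are of 1 strain and reads were counted per gene, so the values do not separate the parental copies.

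Imprinting rests on regions whose DNA is methylated in only the egg or only the sperm, and which keep that difference in the embryo. In mouse cells ZFP57 and ZFP445 bind the methylated copy and recruit TRIM28 with the H3K9 methyltransferase SETDB1. MPP8 (encoded by Mphosph8) and TASOR belong to the human silencing hub (HUSH), another complex that acts through H3K9 methylation and SETDB1. Of the 10 genes, Zim1 is expressed mainly from the maternal copy, Grb10 from the maternal copy in most tissues and the paternal copy in neurons, and the other 8 from the paternal copy. The comparison asks how RNA of these genes differed between dKO and WT cells.

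Of the 10 genes, 3 rose in dKO (Ndn, Peg12 and Usp29), 4 fell (Snrpn, Peg3, Plagl1 and Grb10) and 3 were not called (Magel2, Zim1 and Impact) by the quasi-likelihood test of edgeR, at a Benjamini-Hochberg adjusted p of 0.05 over all tested genes. Of all tested genes, 34.3% were called, 16.4% higher and 17.9% lower. The log2 fold changes, dKO over WT, ran from -1.22 to 1.00 with a median of -0.05, against a median of -0.02 over all tested genes. In CPM (counts scaled to equal library size with TMM factors) the dKO and WT libraries did not overlap for 8 of the 10, where 49.2% of all tested genes did not overlap, and in the deposited TPM for 5 of the 10, against 34.5%. Genes of the same domain were therefore called in both directions: Ndn and Peg12 higher with Snrpn lower, and Usp29 higher with Peg3 lower. In 13 alternative settings the call was lost in 7 for Peg3, 3 for Usp29, 3 for Peg12, 1 for Snrpn and 0 for Ndn.

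**Figure D1:**
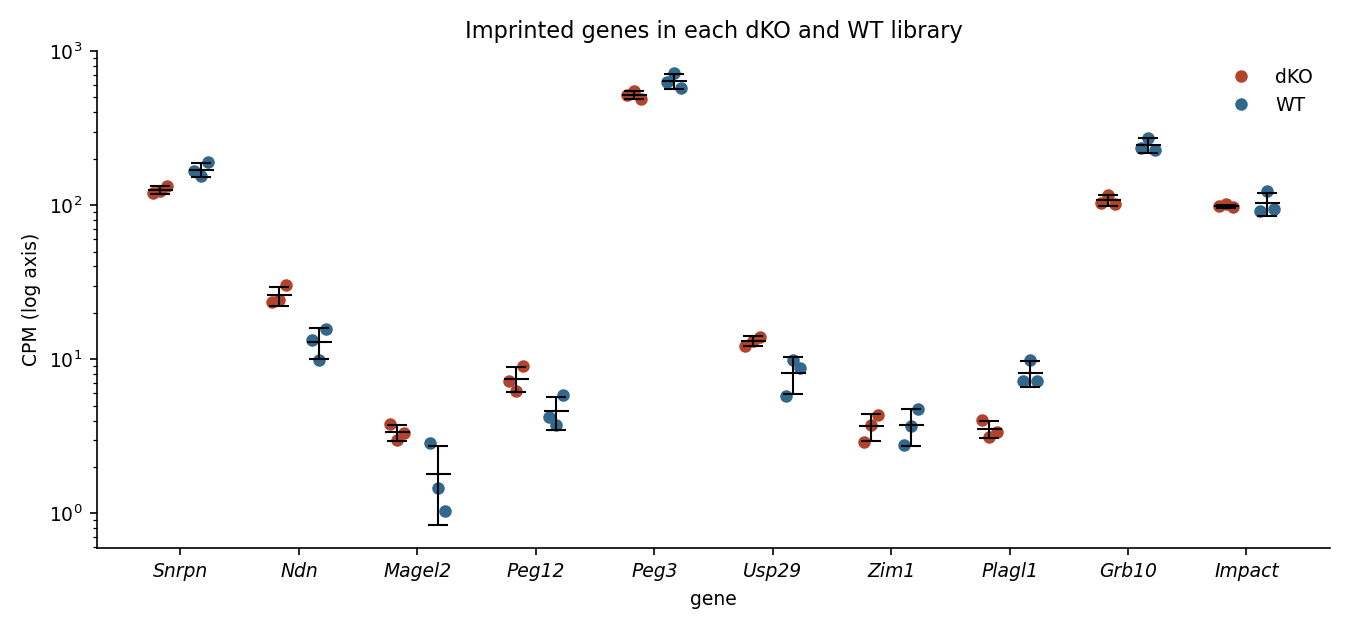
CPM on a log axis of the 10 imprinted genes in each dKO and WT library, with points for libraries and black bars for mean ± SD (n = 3 each). Grb10 lies at 101.1 to 116.9 CPM in dKO libraries, against 226.9 to 274.7 CPM in WT libraries, while Zim1 and Impact overlap between genotypes.

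Total counts were 18881728 to 20128374 in dKO libraries and 18384804 to 24910541 in WT libraries. Mphosph8 had 1, 4 and 3 counts in dKO libraries 1, 2 and 3, against 2159, 3597 and 2173 in WT libraries 1, 2 and 3, and Tasor had 180 to 204 counts in dKO libraries, against 2567 to 4932 in WT libraries. WT replicate 2 stood apart on the second principal component (15.4% of the variance), and held 2.29% mitochondrial counts against 1.34% to 1.63% in the other 5 libraries. Without WT replicate 2 more genes were called over the whole table, 6828 of 16182 tested against 5391 of 15714 with all libraries. The same 7 of the 10 genes were called in that setting. Their log2 fold changes included -0.51 for Snrpn, 0.58 for Peg12, -0.21 for Peg3, 0.86 for Usp29 and -1.10 for Grb10. Magel2, at 0.78, was not called. Among tested genes of chromosome 14, 70.5% were lower in dKO (median log2 fold change -0.94), and on the Y chromosome 75% of 12 (median log2 fold change -8.06). The 10 imprinted genes lie on chromosomes 7, 10, 11 and 18, whose tested genes had medians of 0.03, 0.00, 0.02 and -0.02. ES cell markers were present and 7 of 8 were not called, with Tfcp2l1 lower. Marker lists of other cell types also moved. Of 9 fibroblast markers, 4 were higher, 0 lower, 3 not called and 2 too low to test, with a summed 45.1 to 47.9 CPM in dKO against 28.2 to 38.9 CPM in WT. Of 8 trophoblast markers 6 were lower, 1 not called and 1 too low to test (summed 32.6 to 35.8 CPM in dKO against 253.7 to 367.7 CPM in WT). Of 7 primitive endoderm markers 3 were lower, 1 higher, 2 not called and 1 too low to test (56.2 to 59.4 CPM in dKO against 225.7 to 245.9 CPM in WT). Of 6 neuron markers 3 were lower, 1 higher and 2 not called (230.9 to 257.4 CPM in dKO against 275.6 to 342.4 CPM in WT). No listed marker was at 0 in all 6 libraries, and the part of such cells in the results below was not tested. In bulk RNA, fewer cells expressing a gene and less RNA per cell cannot be told apart.

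Levels between genes can be compared only per length, in the deposited TPM, which is scaled for length. TPM did not follow counts by 1 fixed length per gene. Plagl1 had 61 counts and 1.82 TPM in dKO replicate 2, but 64 counts and 5.18 TPM in dKO replicate 3. The order and SDs below carry such differences too. In dKO libraries the mean TPM ran in the order Snrpn (116.5 ± 6.83, SD, n = 3), Peg3 (95.8 ± 15.5), Impact (53.7 ± 8.5), Grb10 (35.4 ± 5.73), Ndn (11.5 ± 0.441), Peg12 (4.8 ± 0.396), Usp29 (4.68 ± 0.647), Plagl1 (3.08 ± 1.83), Magel2 (1.18 ± 0.189) and Zim1 (0.86 ± 0.201). In WT libraries the order was Snrpn (151.0 ± 6.94), Peg3 (115.1 ± 34), Grb10 (77.3 ± 21.4), Impact (53.2 ± 17.7), Plagl1 (6.12 ± 1.1), Ndn (5.47 ± 0.41), Usp29 (3.43 ± 1.45), Peg12 (2.8 ± 0.255), Zim1 (0.9 ± 0.299) and Magel2 (0.613 ± 0.326). Neighbours in the dKO order overlapped in TPM only for Peg12 with Usp29 and Usp29 with Plagl1. In WT, every pair of neighbours in the order overlapped except Impact with Plagl1 and Peg12 with Zim1.

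The Prader-Willi domain of chromosome 7 holds Snrpn, Ndn, Magel2 and Peg12. The human counterparts of Snrpn, Ndn and Magel2 are lost or silent in Prader-Willi syndrome. Snrpn (ENSMUSG00000102252, up to 11 exons in 1 annotated transcript) encodes SmN, a core protein of spliceosomal ribonucleoproteins that in neurons and ES cells accompanies the general form encoded by Snrpb. Its start is shared with Snurf, a small open reading frame on the same transcript. Ndn (ENSMUSG00000033585), Magel2 (ENSMUSG00000056972) and Peg12 (ENSMUSG00000070526) each have 1 exon. NDN (necdin) is a growth-restraining MAGE protein of neurons, MAGEL2 a MAGE protein that in human cells works with the ubiquitin ligase TRIM27 in endosomal recycling, and PEG12 a FRAT-type GSK3-binding protein.

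The sequences before the starts of Snrpn, Ndn and Peg12, the called genes of the domain that went opposite ways, are shown 5′ to 3′ on each gene's strand, from RefSeq on GRCm38.p6, with each CpG, the dinucleotide that carries DNA methylation, in capitals. For Snrpn, of 4 annotated starts, the one shared with Snurf is shown (chr7:60005200-60005449, minus strand), with 3 CpG. Ndn (chr7:62348027-62348276, plus strand) has 5 CpG and Peg12 (chr7:62464511-62464760, minus strand) has 8, where the median over 32851 such windows of all genes was 6.
Snrpn: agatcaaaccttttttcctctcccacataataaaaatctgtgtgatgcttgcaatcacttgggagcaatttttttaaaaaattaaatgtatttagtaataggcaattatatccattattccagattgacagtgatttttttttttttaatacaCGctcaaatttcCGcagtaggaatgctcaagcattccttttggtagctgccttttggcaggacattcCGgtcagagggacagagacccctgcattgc
Ndn: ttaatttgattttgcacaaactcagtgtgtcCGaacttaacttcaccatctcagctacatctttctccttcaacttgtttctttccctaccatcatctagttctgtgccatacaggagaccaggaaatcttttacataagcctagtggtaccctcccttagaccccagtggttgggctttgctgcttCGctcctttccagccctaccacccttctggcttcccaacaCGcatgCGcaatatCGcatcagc
Peg12: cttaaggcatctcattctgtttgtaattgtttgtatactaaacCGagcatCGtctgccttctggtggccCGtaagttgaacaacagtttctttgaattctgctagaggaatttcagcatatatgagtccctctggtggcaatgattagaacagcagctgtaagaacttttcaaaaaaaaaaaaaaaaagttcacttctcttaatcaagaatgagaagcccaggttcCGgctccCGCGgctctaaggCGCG

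Snrpn had 119.7, 124.1 and 133.7 CPM in dKO libraries 1, 2 and 3, against 166.9, 153.5 and 190.4 CPM in WT libraries 1, 2 and 3. Every dKO library lay below every WT library. The dKO to WT difference in log2 was -0.44 (SE 0.1; edgeR adjusted p = 0.00892), and without dKO replicate 1 the call was lost (edgeR adjusted p = 0.0556). Reads of Snrpn can be shared with Snurf and with Gm38393, which overlap it on the same strand. Summed over the 3, the locus had 144.9 ± 8.01 CPM in dKO and 199.3 ± 19 CPM in WT (SD, n = 3 each), so the sum was lower as well. Gm38393 alone was also lower (log2 fold change -0.60).

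Ndn had 23.5, 24.1 and 30.2 CPM in dKO libraries 1, 2 and 3, against 13.4, 9.83 and 15.8 CPM in WT libraries 1, 2 and 3. All dKO values were above all WT values, and WT replicate 2 was the lowest. On the log2 scale dKO differed from WT by 1.00 (SE 0.183; edgeR adjusted p = 0.00282), and it was called in all 13 alternative settings, with 0.83 without WT replicate 2. Ndn showed the largest rise among the 10 genes. Gm32061, on the opposite strand across Ndn and Magel2, had 5, 4 and 0 counts in dKO libraries 1, 2 and 3 and 0 counts in WT libraries.

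Peg12 had 7.2, 6.25 and 8.99 CPM in dKO libraries 1, 2 and 3, against 4.19, 3.75 and 5.82 CPM in WT libraries 1, 2 and 3. The genotypes did not overlap, but the lowest dKO and highest WT values lay close together. The dKO to WT difference in log2 was 0.71 (SE 0.218; edgeR adjusted p = 0.0324). The call was lost without WT replicate 1, dKO replicate 1 or dKO replicate 3 (highest edgeR adjusted p = 0.122).

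Magel2 had 78, 58 and 63 counts in dKO libraries 1, 2 and 3, against 52, 36 and 19 counts in WT libraries 1, 2 and 3, or 3.77, 2.99 and 3.31 CPM against 2.87, 1.47 and 1.04 CPM. Every dKO library was above every WT library, with a gap between the lowest dKO and the highest WT value much smaller than the spread among WT libraries. Its log2 fold change of 0.91 (SE 0.348) was not called (edgeR adjusted p = 0.0703). It was called in 4 of 13 alternative settings, whose values ran from 0.64 to 1.41. WT replicate 1, the highest WT library, decided the call among single libraries, since without it the log2 fold change was 1.41 (edgeR adjusted p = 0.0107). The 95% interval from the SE, taken with the normal quantile and so somewhat too narrow for so few libraries, spans 0.23 to 1.60.

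Within the domain, the log2 ratio of Ndn to Snrpn, computed on CPM + 0.5, was -2.26 ± 0.12 in dKO and -3.68 ± 0.19 in WT (SD, n = 3 each). The difference of 1.41 gave an exact two-sided permutation p = 0.1, the smallest that 3 against 3 allows, and an adjusted p = 0.2 over the 4 ratios tested. No library of 1 genotype reached the values of the other, which follows from Ndn and Snrpn each separating the genotypes in opposite directions. For Magel2 over Ndn the log2 ratio was -2.77 ± 0.26 in dKO and -2.61 ± 0.70 in WT, a difference of -0.16 (exact two-sided permutation p = 0.7), within the spread of WT libraries. For Snrpn over its paralog Snrpb the log2 ratio was -0.18 ± 0.25 in dKO and 0.26 ± 0.46 in WT (exact two-sided permutation p = 0.3), with overlapping genotypes. Snrpb itself had 144.8 ± 31.4 CPM in dKO and 149.5 ± 55.7 CPM in WT and was not called.

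**Figure D2:**
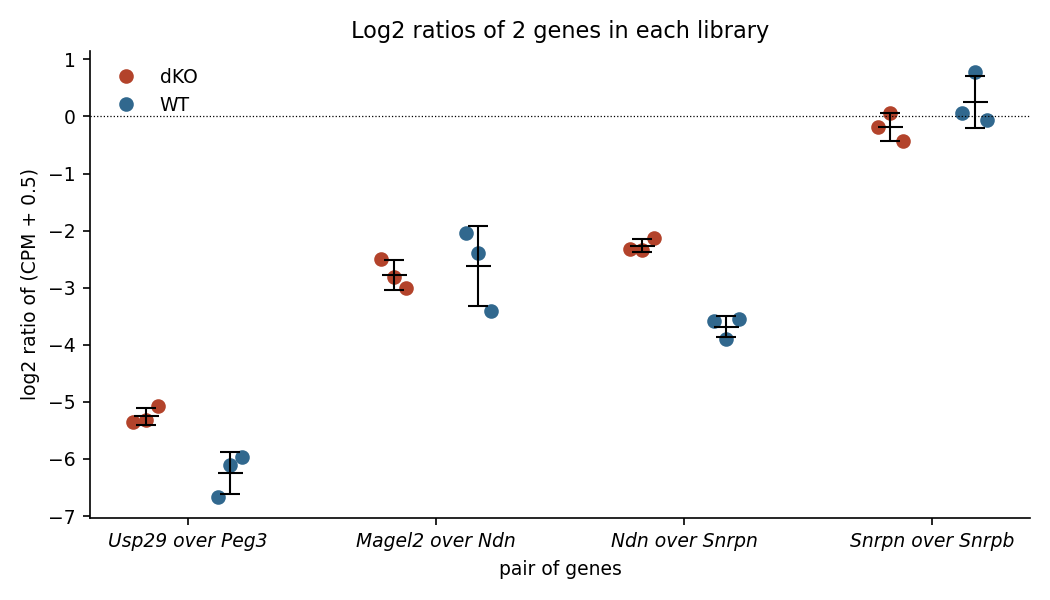
Log2 ratio of (CPM + 0.5) for 4 pairs of genes in each dKO and WT library, with points for libraries and bars for mean ± SD (n = 3 each). Usp29 over Peg3 and Ndn over Snrpn are higher in dKO, with no overlap, and the other pairs overlap.

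Other genes of the Prader-Willi and Angelman region also went both ways. Of 15 listed genes, 3 were higher, 4 lower, 5 not called and 2 too low to test, and 1 symbol (Ipw) was not matched. The lower genes were Snhg14 (log2 fold change -0.55), the long noncoding transcript that continues from Snrpn and runs antisense to Ube3a, from which its reads may not be told apart, Mkrn3 (-0.70), the paternally expressed ubiquitin ligase gene between Magel2 and Peg12, and Nipa1 (-0.88) and Cyfip1 (-0.56), from the nearby group of genes that are not imprinted in mouse. Snhg14 had 40.2, 38 and 49.3 CPM in dKO libraries 1, 2 and 3, against 52.6, 72.9 and 61 CPM in WT libraries 1, 2 and 3. Mkrn3 did not overlap between genotypes either, with 4.52 ± 1.14 CPM in dKO and 7.35 ± 1.52 CPM in WT (SD, n = 3 each). The higher genes were Herc2 (log2 fold change 0.36), Atp10a (0.35) and the GABA receptor gene Gabrg3 (1.60, at 0.388 CPM in WT). Ube3a, the maternally expressed gene of Angelman syndrome in neurons, had 124.4 ± 5.2 CPM in dKO and 156.4 ± 34.2 CPM in WT and was not called (log2 fold change -0.33, edgeR adjusted p = 0.101). The neighbours Gm10297, A230057D06Rik, Chrna7, Otud7a and Klf13 were not called. Calls of Mkrn3, Atp10a and Gabrg3 were each lost when any of 4 or 5 single libraries was left out, and those of Snhg14 and Herc2 without dKO replicate 2 (Snhg14 also without dKO replicate 1).

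Among 305 tested protein-coding genes with 1 exon in every annotated transcript, 15.7% were higher and 18% lower in dKO, against 15.1% and 19.5% of 13443 tested protein-coding genes with more exons. The shared 1-exon structure of Ndn, Magel2 and Peg12 is given as a description.

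The Peg3 domain lies elsewhere on chromosome 7. Peg3 (ENSMUSG00000002265, up to 10 exons) encodes a large zinc finger protein linked to growth and maternal behaviour in mice. Usp29 (ENSMUSG00000051527) encodes a deubiquitinase and is read away from Peg3 from a neighbouring start. Zim1 (ENSMUSG00000002266), a zinc finger gene, is the maternally expressed member. The RefSeq starts of Peg3 (minus strand) and Usp29 (plus strand) are 163 bases apart, so the bases between them lie before both genes. They are shown on the plus strand (chr7:6730420-6730582, GRCm38.p6), with CpG in capitals, because the RNAs read outward from this stretch were called in opposite directions. The Peg3 call was close to the threshold, and both calls depended on the setting, as given below.
Peg3 and Usp29: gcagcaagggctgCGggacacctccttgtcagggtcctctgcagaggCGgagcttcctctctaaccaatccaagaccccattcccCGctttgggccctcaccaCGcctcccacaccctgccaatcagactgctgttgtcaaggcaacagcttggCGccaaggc
The stretch holds 5 CpG. The ZFP57 hexamer TGCCGC and the YY1-type motif AANATGGC, searched on both strands and sharing no full match, were not in it, and 6.34% and 2.42% of all promoter windows of the same length held them. This covers only these 163 bases and not the rest of the domain.

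Peg3 had the most reads of the 10 genes, with 519.1, 547.8 and 489.9 CPM in dKO libraries 1, 2 and 3, against 629.1, 717.0 and 573.6 CPM in WT libraries 1, 2 and 3. The genotypes did not overlap, and WT replicate 2 was the highest. On the log2 scale dKO differed from WT by -0.30 (SE 0.102; edgeR adjusted p = 0.0465), close to the threshold. The call was lost in 7 of 13 alternative settings, among them library totals, DESeq2's test (adjusted p = 0.0575) and leaving out any dKO replicate or WT replicate 1, with edgeR adjusted p up to 0.158. In the deposited TPM, Peg3 overlapped between genotypes, at 78.74 to 109.01 in dKO and 84.49 to 151.71 in WT.

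Usp29 had 12.1, 13.2 and 14 CPM in dKO libraries 1, 2 and 3, against 5.73, 9.91 and 8.72 CPM in WT libraries 1, 2 and 3. All dKO libraries were above all WT libraries, and WT replicate 1 was the lowest. The dKO to WT difference in log2 was 0.68 (SE 0.197; edgeR adjusted p = 0.0245), and the call was lost without any 1 of the dKO replicates (highest edgeR adjusted p = 0.08). In TPM the genotypes overlapped, at 3.93 to 5.07 in dKO and 2.16 to 5.01 in WT.

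The log2 ratio of Usp29 to Peg3 was -5.25 ± 0.15 in dKO and -6.24 ± 0.37 in WT (SD, n = 3 each). The difference of 0.99 gave an exact two-sided permutation p = 0.1, the smallest possible, with an adjusted p = 0.2 over the 4 ratios. Each dKO library had a higher ratio than each WT library, which follows from Usp29 and Peg3 each separating the genotypes in opposite directions. Peg3 nevertheless remained far more abundant than Usp29 per length in both genotypes.

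Zim1 had 2.9, 3.72 and 4.36 CPM in dKO libraries 1, 2 and 3, against 2.76, 3.71 and 4.77 CPM in WT libraries 1, 2 and 3. The genotypes overlapped throughout. Its difference on the log2 scale was -0.04 (SE 0.254, edgeR adjusted p = 0.928). The 95% interval from the SE (normal quantile) spans -0.53 to 0.46, so a true difference within that range cannot be told apart from 0.

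Beyond Usp29 the 3 nearest tested genes were all higher in dKO. Aurkc, a meiotic aurora kinase gene, had 172, 170 and 202 counts in dKO libraries 1, 2 and 3, against 23, 31 and 23 counts in WT libraries 1, 2 and 3 (log2 fold change 2.86, edgeR adjusted p = 7.91e-06). The zinc finger genes Zfp954 and Zfp773 had log2 fold changes of 0.67 and 1.77, the call of Zfp954 being lost without dKO replicate 1. On the other side, beyond Zim1, the zinc finger genes Zfp78 and Zfp28 and the olfactory receptor gene Or6z3 were not called (0.33, 0.18 and 0.41). Of 9 genes listed around Peg3, 3 were higher (Aurkc, Zfp264 and Zik1), 0 lower, 3 not called and 2 too low to test, and 1 symbol (Apeg3) was not matched. Zfp264 has 2 identifiers in the table, and the one with more reads was used (log2 fold change 1.07), a call lost without dKO replicate 1. Zik1 had a log2 fold change of 0.44, and its call was lost when any of 5 single libraries was left out.

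Plagl1 (ENSMUSG00000019817, chromosome 10) encodes ZAC1, a zinc finger transcription factor known to act on other imprinted genes, and Grb10 (ENSMUSG00000020176, chromosome 11) encodes an adaptor that restrains insulin and IGF receptor signalling. They had the largest falls of the 10 genes. The 250 bases before the Plagl1 start (chr10:13090582-13090831, plus strand) hold 19 CpG, and those before the outer of 2 annotated Grb10 starts (chr11:12037421-12037670, minus strand) hold 40. The window before the inner Grb10 start holds 8, and 27.3% of all windows hold 15 or more. They are shown from RefSeq, GRCm38.p6, with CpG in capitals, because they belong to the 2 genes with the largest falls, for Grb10 the CpG-rich start of the pair.
Plagl1: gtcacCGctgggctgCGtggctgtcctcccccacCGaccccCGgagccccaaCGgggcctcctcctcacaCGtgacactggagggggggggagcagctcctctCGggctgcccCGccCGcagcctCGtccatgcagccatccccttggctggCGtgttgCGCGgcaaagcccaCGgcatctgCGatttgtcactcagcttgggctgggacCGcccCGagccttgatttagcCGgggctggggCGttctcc
Grb10: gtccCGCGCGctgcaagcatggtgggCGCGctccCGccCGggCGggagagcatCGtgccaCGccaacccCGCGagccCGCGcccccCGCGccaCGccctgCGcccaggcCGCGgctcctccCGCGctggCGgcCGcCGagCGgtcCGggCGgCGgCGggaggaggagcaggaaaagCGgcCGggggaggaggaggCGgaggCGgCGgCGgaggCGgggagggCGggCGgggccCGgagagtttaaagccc
The hexamer TGCCGC, on either strand, occurs 1 time in the Plagl1 window and 0 times in this Grb10 window, and in 8.68% of all windows. Whether any window shown lies in a region methylated in only the egg or only the sperm was not examined.

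Plagl1 had 83, 61 and 64 counts in dKO libraries 1, 2 and 3, against 132, 243 and 132 counts in WT libraries 1, 2 and 3, or 4.01, 3.15 and 3.36 CPM against 7.27, 9.91 and 7.24 CPM. Every dKO library was below every WT library. On the log2 scale dKO differed from WT by -1.22 (SE 0.196; edgeR adjusted p = 0.00143), which is 2.32-fold lower, and it was called in all 13 alternatives (-1.05 without WT replicate 2). In the deposited TPM the genotypes overlapped, because dKO replicate 3 had 5.18 against 2.25 and 1.82 in dKO replicates 1 and 2, while WT libraries had 4.87 to 6.93. Its Plagl1 count, 64, lay between those of dKO replicates 1 and 2, and 25 transcripts are annotated for the gene.

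Grb10 had 103.8, 116.9 and 101.1 CPM in dKO libraries 1, 2 and 3, against 234.1, 274.7 and 226.9 CPM in WT libraries 1, 2 and 3. The dKO values were at about the same level, well below the lowest WT value. The dKO to WT difference in log2 was -1.19 (SE 0.104; edgeR adjusted p = 3.87e-05), which is 2.29-fold lower. It was called in all 13 alternatives, with values from -1.26 to -1.10, and the genotypes did not overlap in TPM either.

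The genes on either side of Grb10 were lower too. Ddc, the dopa decarboxylase gene, had 5.56, 7.23 and 6.31 CPM in dKO libraries 1, 2 and 3, against 25.7, 22.5 and 23.5 CPM in WT libraries 1, 2 and 3 (log2 fold change -1.91, edgeR adjusted p = 1.41e-05). Cobl, an actin nucleator gene, had 18.7, 17.9 and 13.7 CPM in dKO libraries 1, 2 and 3, against 46.7, 55.6 and 37.3 CPM in WT libraries 1, 2 and 3 (log2 fold change -1.48, edgeR adjusted p = 0.000237). Fignl1, next to Ddc, had 178.0 ± 6.4 CPM in dKO and 178.4 ± 28.3 CPM in WT and was not called. Ikzf1, the Ikaros gene beyond it, was lower, at 1.23 CPM in dKO against 2.44 CPM in WT, a call that was lost by DESeq2's test and in 4 of the 6 settings that leave out a library. Around Plagl1, none of the 3 nearest tested genes on either side was called by edgeR, with log2 fold changes from -0.89 (Stx11) to 0.19 (Utrn) and Sf3b5, Ltv1, Phactr2 and Fuca2 in between. Gm12002 and Gm12005, beyond Cobl, were not called either.

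Impact (ENSMUSG00000024423, chromosome 18) encodes a protein that binds GCN1 and restrains the amino acid sensor GCN2. It had 98.3, 101.0 and 96.7 CPM in dKO libraries 1, 2 and 3, against 91, 122.7 and 95 CPM in WT libraries 1, 2 and 3. WT replicate 2 was the highest and the remaining libraries lay close together. On the log2 scale dKO differed from WT by -0.06 (SE 0.119; edgeR adjusted p = 0.729), and by 0.09 without WT replicate 2. The 95% interval from the SE (normal quantile) was -0.30 to 0.17. Of its neighbours, Osbpl1a, an oxysterol-binding protein gene, was higher (log2 fold change 0.58), and Ss18, a subunit gene of BAF chromatin remodelling complexes, was lower (-0.29, a call lost with library totals and without WT replicate 1 or any dKO replicate). Cabyr, Gm49970, Zfp521 and Psma8 nearby were not called. Of 12 genes listed around Plagl1, Grb10 and Impact, 2 were higher (Osbpl1a and Ttc39c, at 0.95), 3 lower (Ddc, Cobl and Ikzf1), 5 not called and 1 too low to test, and 1 symbol (Hymai) was not matched.

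**Figure D3:**
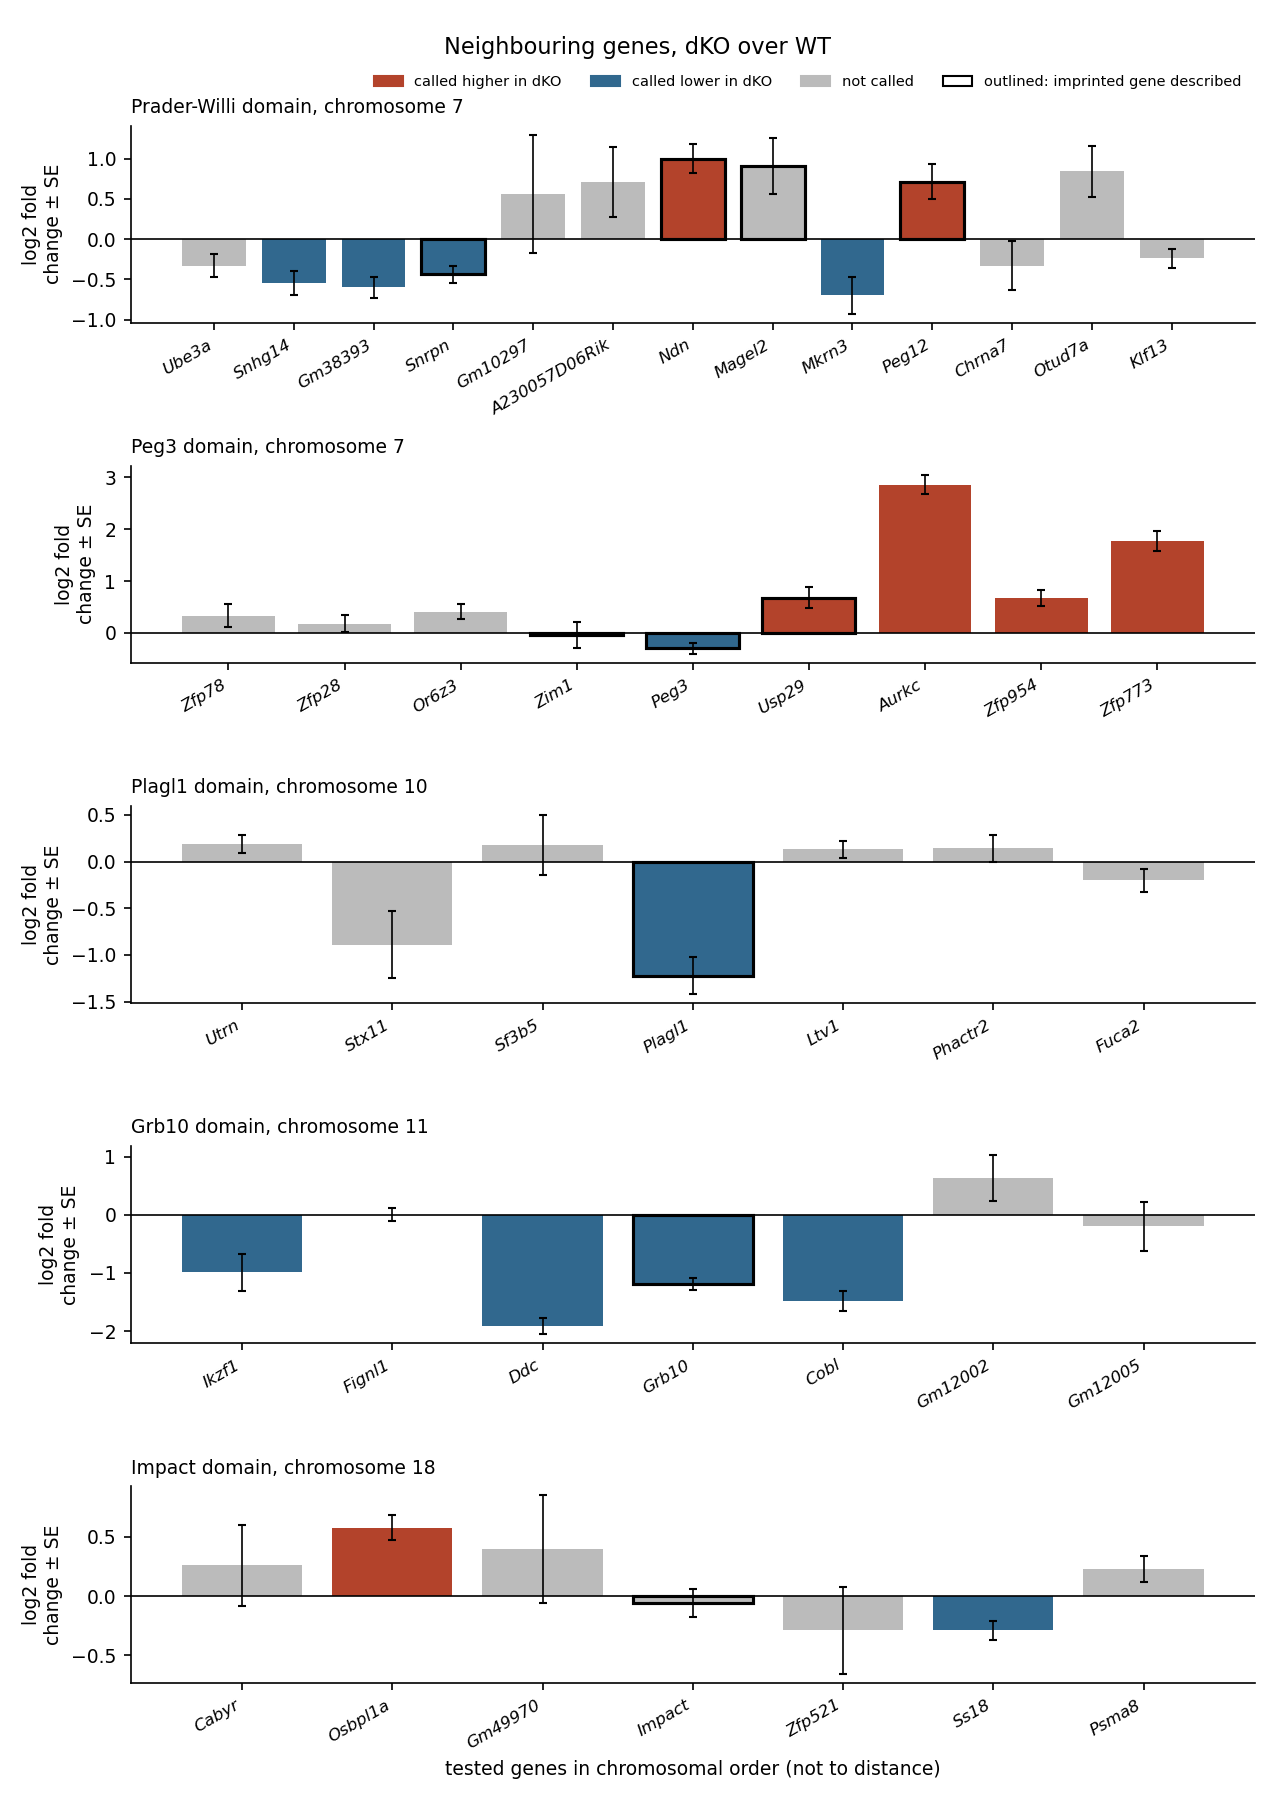
Log2 fold change, dKO over WT (± SE), of the tested genes in chromosomal order around each imprinted domain, with the imprinted genes described here outlined in black. Bars pass 0 in both directions in the Prader-Willi and Peg3 domains, while Ddc (-1.91), Grb10 (-1.19) and Cobl (-1.48) are all lower.

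**Figure D4:**
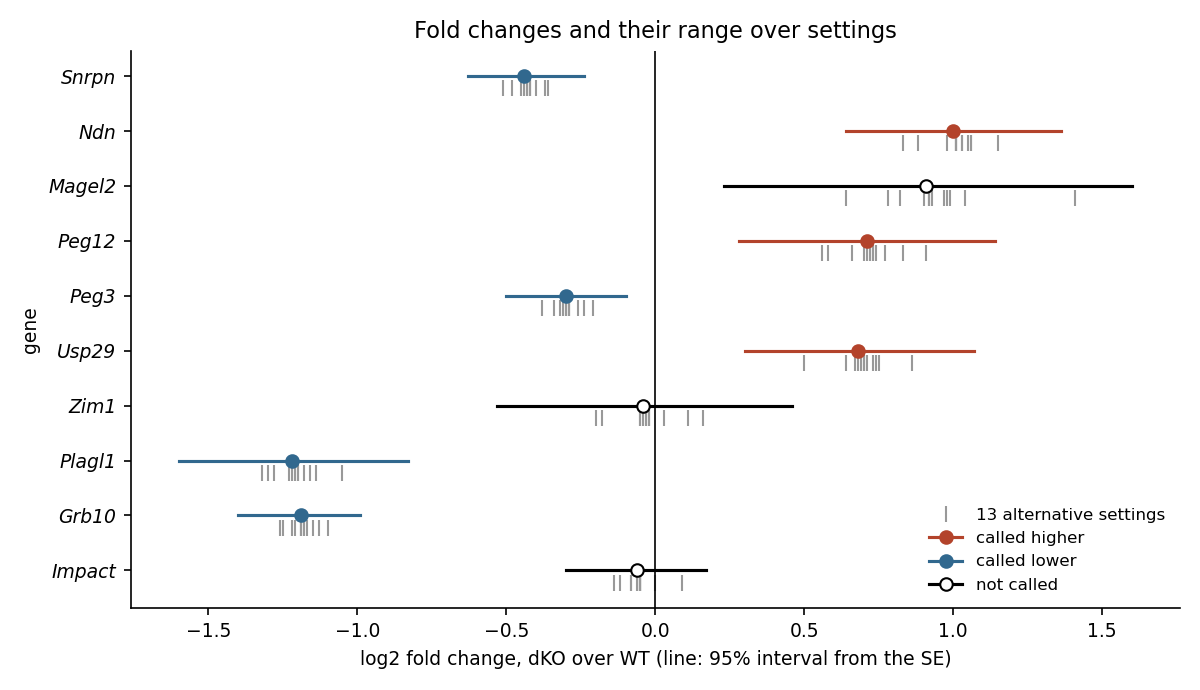
Log2 fold change, dKO over WT, of each imprinted gene (point), with a line for the 95% interval from the SE (normal quantile) and grey ticks for 13 alternative settings. Ticks cross 0 for Zim1 and Impact, and stay on the side of the point for the other 8 genes.

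The authors' deposited table gives folds of 2.01 for Ndn, 1.62 for Usp29, 1.65 for Peg12, 0.441 for Grb10, 0.434 for Plagl1 and 0.746 for Snrpn, each with an adjusted p under 0.05. In the authors' deposited table Peg3 (log2 -0.29, adjusted p 0.0575) and Magel2 (log2 0.92, adjusted p 0.0726) were above 0.05.

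Among genes with log2 CPM most correlated with Snrpn over the 6 libraries were Ssr2, Mapk8ip2 and Bnipl (Pearson r 0.9986, 0.9979 and 0.9964). For Peg3 they were Orc1, Cdk17 and Stxbp4 (Pearson r 0.9992, 0.9985 and 0.9957). These values describe 6 libraries in 2 genotypes, which share depth and library effects, and the genes were chosen as the highest of all tested.

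Other imprinted genes were more often lower than higher. Of 33 listed, 4 were higher, 14 lower, 12 not called and 2 too low to test, with 1 symbol (Zrsr1) not matched and a median log2 fold change of -0.42, against -0.02 over all tested genes. Of all tested genes, 16.4% were higher and 17.9% lower. The list's direction was known from earlier results of these data. The lower genes with the smallest p were Igf2 (log2 fold change -5.01), the fetal growth factor gene, Peg10 (-2.39), a placental retrotransposon-derived gene, its neighbour Ppp1r9a (-1.18) and Nnat (-1.59). The higher genes were Mest (1.51), Mcts2 (0.53), H19 (0.80) and Inpp5f (0.42), and the calls of the last 3 were lost in 5 to 8 of 13 alternatives.

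Of 22 genes for factors that set, protect or remove DNA methylation or imprints, 2 were higher, 9 lower and 11 not called. Over all tested genes 16.4% were higher and 17.9% lower. The list holds the demethylase genes Tet1, Tet2 and Tet3. Among them Tet2 and Tet3 (log2 fold change -0.42) were lower and Tet1 was not called. Dnmt3a, a de novo DNA methyltransferase gene, was higher (log2 fold change 0.62), as was Arid4a (0.35), a call lost in 5 of 13 alternatives. The lower genes with the smallest p were Atrx (-0.93), a chromatin remodeller gene, Smchd1 (-1.03), Dnmt3l (-0.71), the cofactor of de novo methylation in germ cells, and the demethylase gene Tet2 (-0.72). Zfp57, chosen after its value was seen, had 354.6 ± 6.95 CPM in dKO and 418.7 ± 12.1 CPM in WT (log2 fold change -0.24, edgeR adjusted p = 0.0381), a call lost in 8 of 13 alternatives. Trim28 and Setdb1, also named with their values known, were lower, with 1524.4 ± 9.6 CPM in dKO and 1968.2 ± 110.6 CPM in WT for Trim28 (log2 fold change -0.37, edgeR adjusted p = 0.00843), and 193.4 ± 14.2 CPM in dKO and 236.4 ± 18.3 CPM in WT for Setdb1 (-0.29, edgeR adjusted p = 0.0394). The call of Trim28 was lost without dKO replicate 1, and that of Setdb1 in 7 of 13 alternatives. Zfp445, also chosen after its value was seen, was not called and had 129.4 ± 3.09 CPM in dKO and 129.0 ± 8.95 CPM in WT.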

How the data were processed

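The authors deposited 1 table with expected counts per gene (estimated counts that need not be whole: 24.6% of values above 0 were not whole, with no tolerance), TPM per library and per genotype, gene length, and their own fold (ratio), log2 fold, p-value and adjusted p-value, per the file headers. HISAT2 2.1.0, DESeq 1.26.0, RSEM, FastQC and the GRCm39 build are listed in the submitters' processing notes. The annotation release and strand setting are not given in the sources used here, so reads of overlapping and antisense genes are uncertain. Per the labels' protocols, total RNA was made into libraries with an Illumina TruSeq kit.

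Counts were rounded and tested with edgeR 4.0.16 in R 4.3.3 (filterByExpr, TMM, robust quasi-likelihood fit on genotype). A call needed an adjusted p (Benjamini-Hochberg, 15714 genes) below 0.05. The SE was taken as the absolute log2 fold change over the root of F. The 10 genes and all lists, from which the ratio pairs were taken, were chosen with earlier results of these data known. From lists, all called genes were named if 8 or fewer, otherwise the 4 higher and 4 lower with the smallest p, and the 3 nearest tested genes on either side of each domain. Chromosomes, exons and gene order came from GENCODE M21 (GRCm38, 51884 identifiers matched), and 9 of 10 genes matched RefSeq promoter windows, cut to the 250 bases before the start. Alternatives were 3 other scalings, DESeq2 1.42.0, limma 3.58.1 (voom on unrounded counts), no low-count filter, a replicate block and leaving out each library. In a test on simulated data with the gene-wise dispersions of these libraries, most genes changed by the larger folds were recovered. The share of unchanged genes among calls was above the nominal 0.05. Far fewer genes were changed in that simulation than were called here, so its share cannot be carried over to the real calls. How much less certain calls close to the threshold are than their adjusted p was not measured. Figures and permutation tests used matplotlib 3.10.9, SciPy 1.17.1, NumPy 2.4.6 and pandas 2.3.3 under Python 3.11.15.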

Additional observations from a re-analysis of the deposited data

How the results depend on the processing

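Ndn, Plagl1 and Grb10 kept direction and call in all 13 alternatives. Of the 10 genes, 7 were called in the main fit. Leaving out single libraries gave 3 to 7 called genes. There were 3 without dKO replicate 1 (Snrpn, Peg12, Peg3 and Usp29 lost) and 4 without dKO replicate 3 (Peg12, Peg3 and Usp29 lost). The number called over all genes moved as well. It was 3586 of 16117 tested without dKO replicate 1 and 4123 of 16145 without dKO replicate 3. Without WT replicate 2 it was 6828 of 16182, against 5391 of 15714 in the main fit. The other alternatives gave 6 to 8, with Peg3 lost or Magel2 gained. The fit with a replicate block gave 8. Same-numbered libraries deviated together with correlations of -0.0763, 0.273 and 0.329 for replicates 1, 2 and 3. Ribosomal protein counts made up 4.26%, 3.94% and 5.2% of dKO libraries 1, 2 and 3. In WT libraries 1, 2 and 3 they made up 4.29%, 3.05% and 5.42%, the same order by number. With the replicate block 6794 genes were called, against 5391 in the main fit. The labels state no pairing, so the main fit used none. Zim1, not called, turned to 0.03 with library totals, 0.16 without WT replicate 3 and 0.11 without dKO replicate 1, and Impact to 0.09 without WT replicate 2, and with single libraries left out they ran from -0.20 to 0.16 and from -0.14 to 0.09. The Magel2 to Ndn ratio difference of -0.16 turned to 0.13 without WT replicate 1 (-0.55 to 0.13 over the libraries left out), and the other 3 ratio differences kept their sign under other pseudocounts (0.1 and 1) and with each library left out, though Snrpn to Snrpb moved from -0.44 to -0.18 without WT replicate 2 and to -0.60 without WT replicate 3. Of 48 called genes named beside the 10, 26 were called in all 13 alternatives, and none of the 48 changed sign in those alternatives. Named genes that were not called were not rerun. Magel2, Zim1, Peg12 and Plagl1 had 19 to 243 counts per library, and the part of depth in their precision was not tested.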

Other observations

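Lists of genes that work with the proteins of the imprinted genes are given by their counts, where 34.3% of all tested genes were called. Of 7 Sm core protein genes, which form the ring that SmN joins, 0 were higher, 1 lower (Snrpd1, log2 fold change -0.62, lost in 7 of 13 alternatives, with overlapping genotypes) and 6 not called. Of 12 paralogs of the 10 genes, 2 were higher, Usp26 (0.66) and Maged1 (0.41), both X-linked, 1 lower, Grb7 (-0.58), and 9 not called. Of 6 partners of MAGEL2 and necdin, E2f1 (0.57) and Trim27 (0.44) were higher, 0 lower and 4 not called, and Trim27 was lost without any 1 of the dKO replicates.

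Of 7 genes of insulin and IGF receptor signalling, to which GRB10 binds, 0 were higher, 2 lower and 5 not called. Irs2, an insulin receptor substrate gene, had 11.1 ± 1.6 CPM in dKO and 33.4 ± 3.12 CPM in WT (log2 fold change -1.59), and Nedd4, a ubiquitin ligase gene, had 1455.2 ± 89.6 CPM in dKO and 2372.8 ± 396.0 CPM in WT (-0.71, SD, n = 3 each). Neither receptor gene was called: Insr was at 0.09 and Igf1r at 0.16 on the log2 scale, both named with their values known. Of 8 genes around IMPACT, GCN2 and the amino acid response, Chac1 (0.50) was higher, Gcn1 (-0.59), Trib3 (-0.51) and Asns (-0.23) were lower and 4 were not called. Calls of Chac1, Trib3 and Asns were lost in 3 to 9 of 13 alternatives.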
